A study of Homo sapiens with 9 samples.

Results

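The 48 genes described here lie on the long arm of human chromosome 15 (15q21), between positions 44288729 and 57299281 of GRCh38, an interval of 13.0 Mb. They were chosen by position and level: a member lies wholly within the interval and has a mean of at least 10 CPM (the count over the library total, per 1000000 counts) over all 9 libraries, and B2M and SORD are left out. The interval itself was selected on the fold changes of its genes in the libraries labelled guide 1, where neighbours were lower together, so the comparison of guide 1 with shScramble is given as a description, with no test. The deposited annotation holds 272 genes in the interval, of which 194 had at least 1 count in any library. Beside the members and the 2 genes left out, 36 of the 272 were expressed highly enough to enter the test without reaching 10 CPM, and 186 were not tested. All 48 members were tested. The least expressed members were PIGBOS1 at a mean of 10.9 CPM and SQOR at 11.2 CPM, and the genes just outside were PRTG at 8.98 CPM and FBN1 at 8.69 CPM.

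All libraries were made from LNCaP:C4-2, a castrate-resistant and enzalutamide-sensitive prostate cancer line derived from LNCaP, whose cells carried an shRNA in the doxycycline-inducible pLKO.1-puro lentiviral vector. There were 3 libraries of shScramble cells, whose shRNA targets no gene, 3 of shMETTL3 guide 2 cells and 3 of shMETTL3 guide 1 cells, and the guides are different shRNAs against METTL3. The cells of every group were selected with 1 ug/mL puromycin, received 1 ug/mL doxycycline for 6 days in medium with charcoal-stripped serum, and their titles carry the word vehicle. The labels do not say whether replicates were separate cultures or transductions, so p-values measure the spread between these libraries, which may be technical, and an effect of the shRNA and a difference between selected lines cannot be told apart. METTL3 is the methyltransferase that places N6-methyladenosine (m6A) on RNA. Its counts were 922, 1010 and 753 with shScramble, 382, 415 and 349 with guide 2 and 837, 837 and 886 in the libraries labelled guide 1. Against shScramble, METTL3 had a log2 fold change of -0.95 (SE 0.0687, adjusted p = 2.97e-12) with guide 2 and -0.08 (SE 0.0633) in the libraries labelled guide 1, so the latter are named by their label throughout. Library totals ran from 21899501 to 30897639 counts. The 7 luminal prostate markers were detected in every library, and their summed level was 2079 to 2102 CPM in shScramble, 2248 to 2392 CPM with guide 2 and 1047 to 1073 CPM in the libraries labelled guide 1. Of 9 basal, stromal, endothelial and blood cell markers, COL1A1 made up almost the whole sum, and KRT5, TP63, DCN and PECAM1 had no count in any library. The part of the lower luminal sum in the members' values was not tested. Fewer cells of a type and less RNA per cell cannot be told apart in such bulk libraries.

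The members are neighbours, not a pathway. They include subunits of complexes that read, copy and translate genes, regulators of ubiquitin, motors and coats of membrane traffic, transporters and enzymes of metabolism, and regulators of actin and the centrosome. Genes side by side on a chromosome share the same stretch of DNA, and a pair that starts head to head on opposite strands can share one promoter. Promoters of widely expressed genes are typically rich in CG dinucleotides and often hold GC boxes, the binding site of SP-family transcription factors, and less often a TATA box.

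Bases before RefSeq start sites are shown for the member lowest in the libraries labelled guide 1 and for the member with the largest rise with guide 2. They are also shown for the head-to-head pair whose fold changes lay farthest apart in both comparisons. RefSeq (GRCh38.p14) gave a promoter for 43 of the 48 members, and the others are GOLM2, SPG11, SORD2P, MYEF2 and EID1. The letters searched on both strands were CCAAT (the CCAAT box), GGGCGG (the GC box), TATAAA (the TATA box) and CACGTG (an E-box), and capitals mark every match. MAPK6 had the lowest fold change of all members in the libraries labelled guide 1, and the 250 bases before its start (chr15:52018969-52019218, + strand) had 72.8% GC, 29 CG dinucleotides and 4 GC boxes. This RefSeq start lies 67113 bases inside the gene as the deposited annotation counts it, so the window is before 1 start of MAPK6 and not before the outermost one. LYSMD2 and TMOD2 start head to head and had fold changes of opposite sign, and 145 bases separate their RefSeq starts (chr15:51751452-51751596, shown on the + strand, which is that of TMOD2), with 79.3% GC, 21 CG dinucleotides and 1 GC box. In the deposited annotation the starts lie 134 bases (LYSMD2) and 36 bases (TMOD2) further out. SLC27A2 had the largest rise with guide 2, and the 250 bases before its start (chr15:50181946-50182195, + strand) had 64.4% GC, 17 CG dinucleotides and 1 GC box.
MAPK6: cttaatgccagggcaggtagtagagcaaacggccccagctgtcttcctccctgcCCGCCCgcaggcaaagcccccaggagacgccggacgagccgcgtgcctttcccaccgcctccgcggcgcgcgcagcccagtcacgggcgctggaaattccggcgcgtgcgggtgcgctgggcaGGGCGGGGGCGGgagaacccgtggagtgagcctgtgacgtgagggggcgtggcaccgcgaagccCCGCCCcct
LYSMD2 and TMOD2: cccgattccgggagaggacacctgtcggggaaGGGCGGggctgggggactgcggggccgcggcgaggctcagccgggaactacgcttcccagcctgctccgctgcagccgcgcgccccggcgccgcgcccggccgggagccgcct
SLC27A2: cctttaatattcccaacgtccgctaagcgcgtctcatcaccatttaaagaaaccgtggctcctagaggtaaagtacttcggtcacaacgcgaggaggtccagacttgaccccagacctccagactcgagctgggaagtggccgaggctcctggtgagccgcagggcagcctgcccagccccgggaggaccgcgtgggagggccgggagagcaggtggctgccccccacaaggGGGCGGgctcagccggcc

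Over the matched members, a GC box was found before the start of 20 genes (46.5%), against 42.3% of 27305 RefSeq promoters of the same length. A CCAAT box was found in 25.6% of members and 33.0% of all promoters, an E-box in 9.30% and 6.49%, and a TATA box in 2.33% and 11.1%. The median number of CG dinucleotides was 19 in the members and 11 in all promoters, and the median GC content was 60% and 58%. These are counts of letters in a fixed window, and the members include pairs whose windows overlap. The members were chosen by level and the 27305 promoters were not, so the values are not matched for level and nothing is read from their differences. Some RefSeq starts also lie far inside the gene as annotated, by 185062 bases in ZNF280D.

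In the libraries labelled guide 1, most members were lower than in shScramble. The median log2 fold change of the members was -0.46, or 72.5% of the shScramble level, with an interquartile range of -0.65 to -0.18. The lowest was MAPK6 at -1.09 and the highest TMOD2 at 0.44. Below 0 lay 38 of 48 members (79.2%), against 51% of all tested genes and 50% of genes of at least 10 CPM. For comparison, the median was -0.02 over all 19278 tested genes and 0.00 over the 10370 genes of at least 10 CPM. A fitted fold of 1.5 or more was reached downwards by 19 members (39.6%), against 19.0% of all tested genes and 11.4% of genes of at least 10 CPM. Over the 14 members that share no exon bases with another gene, 3 reached it (21.4%) and the median was -0.31. It was reached upwards by 0 members, against 15% of genes of at least 10 CPM. Every library labelled guide 1 lay below every shScramble library for 37 members (77.1%), against 34.5% of all tested genes and 38.7% of genes of at least 10 CPM. Since these values chose the interval, nothing is read from their excess.

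The shift was much the same in each library. The median of the members' log2 ratios to the shScramble mean was -0.428, -0.468 and -0.463 in the libraries labelled guide 1, with 39, 39 and 37 of 48 members below 0. It was -0.005, 0.049 and -0.021 in the guide 2 libraries. Each shScramble library set against the mean of the others of its group gave -0.032, -0.012 and 0.029. The members together took 0.294%, 0.2939% and 0.2914% of the counts in the libraries labelled guide 1, 0.3988%, 0.4033% and 0.394% with guide 2 and 0.3972%, 0.3992% and 0.4081% in shScramble. The guide 1 shares lay below all 6 others, and the guide 2 and shScramble shares overlapped.

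MAPK6, the atypical MAP kinase ERK3 (chr15:51952106-52067372, + strand), measured 381, 381 and 379 CPM in shScramble and 176, 181 and 180 CPM in the libraries labelled guide 1. Its guide 2 libraries lay between them at 290, 294 and 286 CPM, a log2 fold change of -0.39 (SE 0.042, adjusted p = 6.01e-09) that stayed under the 1.5-fold limit for a call. All 3 groups were thus separate for this gene. SQOR, the mitochondrial enzyme that oxidises hydrogen sulfide (chr15:45631148-45691294, + strand), measured 11.6, 11.9 and 11 CPM in shScramble and 5.19, 5.39 and 6.18 CPM in the libraries labelled guide 1, a log2 fold change of -1.04. With guide 2 it measured 17.1, 17.2 and 17.2 CPM, a log2 fold change of 0.57 (SE 0.0887, adjusted p = 3.31e-06), just under the limit for a call. The order of SQOR was therefore guide 1, shScramble, guide 2, with no overlap, and 28.5% of its exon bases are shared with other annotated genes.

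ATOSA (chr15:52581317-52709817, - strand) measured 93.2 ± 0.274 CPM in shScramble and 47.6 ± 0.754 CPM in the libraries labelled guide 1 (mean ± SD, n = 3 in each), a log2 fold change of -0.97. SPPL2A, an intramembrane protease of lysosomes and endosomes (chr15:50702266-50765808, - strand), had 154, 158 and 165 CPM in shScramble and 83.0, 83.9 and 80.9 CPM in those libraries, a log2 fold change of -0.95. With guide 2, ATOSA and SPPL2A had log2 fold changes of -0.30 (adjusted p = 5.37e-06) and -0.24 (adjusted p = 5.47e-05), without a call. SLC30A4, a zinc transporter (chr15:45479611-45522807, - strand), and RAB27A, a small GTPase of secretory vesicles (chr15:55202966-55319113, - strand), completed the lowest 6, each at -0.82. RAB27A measured 27.5, 27.7 and 29.0 CPM in shScramble and 17.3, 14.9 and 15.5 CPM in the libraries labelled guide 1. Both genes were higher with guide 2 than in shScramble, SLC30A4 past the limit for a call and RAB27A at a log2 fold change of 0.26 (adjusted p = 0.00215).

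A few members did not follow their neighbours. TMOD2, which caps the pointed ends of actin filaments (chr15:51751561-51816368, + strand), measured 13.4, 12.5 and 13.4 CPM in shScramble and 16.8, 18.7 and 17.8 CPM in the libraries labelled guide 1. GABPB1-AS1, a non-coding RNA antisense to GABPB1 (chr15:50354959-50372202, + strand), measured 61.8, 63.5 and 69.0 CPM in shScramble and 84.2, 87.0 and 77.5 CPM in those libraries, a log2 fold change of 0.36. AP4E1, a subunit of the AP-4 vesicle coat (chr15:50908672-51005900, + strand), stood at 0.32, CEP152, which acts in centriole duplication, at 0.21 and DUT, the dUTPase that keeps uracil out of DNA, at 0.19. In each of these genes every library labelled guide 1 was above every shScramble library. The share of other genes in that order was not counted, so nothing is read from it. SPATA5L1, an AAA-type ATPase, was at 0.10, with libraries of 24.9, 21.8 and 22.6 CPM that overlapped the 21.3, 22.9 and 20.2 CPM of shScramble. ARPP19, an inhibitor of the phosphatase PP2A at mitosis, was at 0.05, with 174, 165 and 167 CPM against 164, 160 and 165 CPM. Its libraries labelled guide 1 lay above every shScramble library only by a margin that rounding hides. CTDSPL2, EIF3J, NEDD4 and RFX7 lay between -0.03 and 0.05 with overlapping groups.

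The lower level was found in genes of most roles. All 10 members of membrane traffic and organelles but AP4E1 were below 0 in the libraries labelled guide 1, at a median log2 fold change of -0.58 and a lowest value of -0.95. Of the 6 members of metabolism and transport, 5 were below 0 at a median of -0.71, DUT being the exception. Of the 8 members of transcription and chromatin, 7 were below 0 at a median of -0.39, with RFX7 at 0.05. The 4 members of translation and RNA had a median of -0.27, the 4 of ubiquitin and the COP9 signalosome -0.19, and the 5 of signalling -0.52. The 3 members of the cytoskeleton and centrosome had a median of 0.21, with TMOD3 alone below 0 at -0.30, and the 8 members outside these roles a median of -0.61. The last include SORD2P, a pseudogene copy of SORD at -0.79, whose reads may be shared with its parent gene.

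The median of the members was below 0 in each part of the interval, on both strands and at high and low level. Divided into 3 parts of equal length, the interval gave medians of -0.47 over 13 members, -0.49 over 24 and -0.43 over 11. The 28 members on the minus strand had a median of -0.52 with 25 below 0, and the 20 on the plus strand -0.31 with 13 below 0. The less expressed members had a median of -0.47 and the more expressed ones -0.46, with 24 in each. The 36 tested genes of the interval below 10 CPM had a median of -0.22, with 21 below 0 and an upper quartile of 0.76.

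The ends of the interval were not sharp. In bins of 2 Mb before it, from the farthest to the nearest, medians were -0.34, -0.35, 0.13 (a single gene), -0.15, -0.25 and -0.17. From 0 to 12 Mb after its start they ran from -0.63 to -0.28, with a single gene at -0.36 from 2 to 4 Mb. The bin from 12 to 14 Mb crosses the distal end and had a median of -0.38 over 5 genes. The genes of at least 10 CPM next to the proximal end were WDR76, a WD-repeat protein, at a log2 fold change of 1.04 in the libraries labelled guide 1, MFAP1, a splicing factor, at -0.24, and SERF2 at -0.77. Beyond the distal end came CGNL1, a tight junction protein, at -0.66, POLR2M at -0.38, and ALDH1A2, a retinaldehyde dehydrogenase, with means of 1.35 CPM in shScramble and 29.6 CPM in the libraries labelled guide 1, through which it reached 10 CPM. Past ALDH1A2 low values went on, as in ADAM10, a membrane protease, at -0.81. All 9 genes of the bin from 14 to 16 Mb after the interval's start were below 0 at a median of -0.40, the 3 genes of the next bin had a median of -0.03, and the bins from 18 to 20 Mb and from 20 to 22 Mb had medians of -0.57 over 12 genes and -0.31 over 17. From 22 Mb onwards the bin medians were -0.07, 0.06 and 0.16. Over flanks as long as the interval, the median was -0.22 over 78 genes before it, with 52 below 0, and -0.27 over 66 genes after it, with 48 below 0. It was -0.06 over the 162 genes of the rest of the chromosome. Over whole chromosomes, medians ran from -0.21 to 0.24, and chromosome 15, members included, was the lowest but one at -0.19. With guide 2 the same flanks had medians of 0.16 and 0.09, and the members -0.03.

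The comparison of guide 2 with shScramble was not used to choose the members, although it shares the shScramble libraries with the one that was. The median log2 fold change of the members was -0.03 here, with an interquartile range of -0.18 to 0.32. Below 0 lay 25 of 48 members (52.1%), against 53.1% of all tested genes and 37.1% of genes of at least 10 CPM. The median was -0.04 over all tested genes and 0.12 over genes of at least 10 CPM. At an adjusted p under 0.05 and a fold of at least 1.5, 9 members were called (18.8%), against 29.3% of all tested genes and 17.0% of genes of at least 10 CPM. Of these, 7 were higher (14.6%), against 8.85% and 10.4%, and 2 were lower (4.17%), against 20.4% and 6.6%. The members' share is thus close to that of other genes of the same level. With libraries scaled by library size alone the split was 5 higher and 4 lower, LEO1 and RSL24D1 fell under the fold limit, and TMOD2 and DMXL2, a regulator of the vacuolar proton pump, passed it downwards at -0.68 and -0.70. Every guide 2 library lay above every shScramble library for 21 members (43.8%), against 50.3% of genes of at least 10 CPM, and below for 19 (39.6%), against 25.8%.

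SLC27A2, a very long-chain acyl-CoA synthetase that takes fatty acids into cells (chr15:50182196-50236395, + strand), measured 11.9, 12 and 10.3 CPM in shScramble and 21.4, 20.5 and 23.7 CPM with guide 2. It rose by a log2 fold change of 0.93 (SE 0.0879, adjusted p = 5.63e-10), and 19.9% of its exon bases are shared with other genes. SLC30A4 measured 98.0, 106 and 91.3 CPM in shScramble and 181, 178 and 178 CPM with guide 2, a rise of 0.86 (SE 0.0512, adjusted p = 5.39e-14). The transporters of fatty acids and zinc were thus the members with the largest rises. EID1, an inhibitor of the acetyltransferases p300 and CBP (chr15:48877886-48880183, + strand), measured 299, 321 and 324 CPM in shScramble and 543, 539 and 544 CPM with guide 2, a rise of 0.78 (SE 0.0466, adjusted p = 5.39e-14). Per kilobase of exon EID1 was the most abundant member over the 9 libraries, at 151 CPM per kb, and TMOD2 the least, at 1.14 CPM per kb.

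ARPP19 measured 269, 282 and 275 CPM with guide 2, against 164, 160 and 165 CPM in shScramble, a rise of 0.76 (SE 0.0433, adjusted p = 2.26e-14). LYSMD2, a LysM domain protein (chr15:51723011-51751585, - strand), measured 18.4, 20.3 and 18.4 CPM in shScramble and 34.8, 30 and 31.8 CPM with guide 2, a rise of 0.76 (SE 0.074, adjusted p = 1.11e-09). RSL24D1, a factor of large ribosomal subunit assembly (chr15:55180806-55197067, - strand), measured 177, 182 and 193 CPM in shScramble and 302, 295 and 286 CPM with guide 2, a rise of 0.68 (SE 0.0522, adjusted p = 1.35e-11). LEO1, a subunit of the PAF1 transcription elongation complex (chr15:51938025-51971806, - strand), rose from 78.5, 73.0 and 72.5 CPM to 117, 117 and 119 CPM, a log2 fold change of 0.66 (SE 0.0471, adjusted p = 2.4e-12). In none of these genes did the guide 2 and shScramble libraries overlap. In the libraries labelled guide 1, LYSMD2 stood at -0.60, RSL24D1 at -0.35 and LEO1 at -0.64.

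The lower members were GABPB1-AS1 and CCPG1. GABPB1-AS1 fell to 26.9, 25.9 and 24.5 CPM with guide 2, a log2 fold change of -1.33 (SE 0.0612, adjusted p = 2.63e-16), and was the member with the largest change in either direction. CCPG1, a receptor for the autophagy of endoplasmic reticulum (chr15:55340032-55408510, - strand), measured 36.1, 35.8 and 37.1 CPM in shScramble, 19.8, 19.0 and 18.4 CPM with guide 2 and 24.6, 23.2 and 23 CPM in the libraries labelled guide 1. The fall of CCPG1 with guide 2 was -0.93 (SE 0.0662, adjusted p = 2.09e-12), and its fold change in the libraries labelled guide 1 was -0.62. Of its exon bases 40.0% are shared with other annotated genes, the highest share of any member, and the treatment of shared reads by the counting is not given in the sources used here.

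Among members that start head to head, partners often differed. There were 7 such pairs whose annotated starts lie within 1000 bases. LYSMD2 and TMOD2, whose annotated starts overlap by 24 bases, had opposite signs in both comparisons, with log2 fold changes of 0.76 and -0.53 with guide 2 and -0.60 and 0.44 in the libraries labelled guide 1. TMOD2 measured 9.05, 9.08 and 9.15 CPM with guide 2, below every shScramble library, and its adjusted p was 1.38e-05 (SE 0.0904), with a fold just under the limit for a call. GABPB1, a subunit of the GA-binding transcription factor (chr15:50275392-50355408, - strand), measured 60.4, 62.7 and 62.7 CPM in shScramble and 62.9, 58.0 and 55.1 CPM with guide 2, which overlap, while its antisense partner GABPB1-AS1 fell. In the libraries labelled guide 1, GABPB1 was lower at -0.42 and GABPB1-AS1 higher at 0.36. These genes overlap in their first exons, and without a stated strand setting the reads of the overlap cannot be assigned to either with certainty. The divergent transcript EIF3J-DT and its partner EIF3J also had opposite signs in both comparisons, at 0.13 and -0.18 with guide 2, neither called. In the libraries labelled guide 1 they stood at -0.63 and 0.02. COPS2 and GALK2 stood at -0.14 and -0.65, and the remaining pairs, RAB27A or PIGBOS1 with PIGB and ZNF280D with TCF12, were lower on both sides, at -0.82, -0.51 and -0.77 and at -0.43 and -0.32.

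At the ends of the interval, GOLM2, a Golgi membrane protein and the first member, measured 165, 157 and 157 CPM in shScramble, 178, 181 and 172 CPM with guide 2 and 96.3, 101 and 107 CPM in the libraries labelled guide 1. CTDSPL2, a phosphatase and the second member, had log2 fold changes of 0.13 and 0.04 in the same order. With guide 2, GOLM2 was at 0.15 (adjusted p = 0.00665), and with scaling by library size alone the sign of both GOLM2 and CTDSPL2 turned. The last members were ZNF280D, a zinc finger protein, and TCF12, a helix-loop-helix transcription factor. TCF12 measured 131, 125 and 129 CPM in shScramble, 93.4, 95.0 and 98.4 CPM with guide 2 and 97.2, 108 and 103 CPM in the libraries labelled guide 1, so that it was lower in both. Its log2 fold change with guide 2 was -0.43 (SE 0.0479, adjusted p = 1.36e-08), under the limit for a call.

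Of the members, 5 encode subunits of complexes whose other subunits are encoded mostly elsewhere. In the libraries labelled guide 1, LEO1 stood at -0.64, below the 5 other PAF1 complex subunits, which ran from -0.36 to 0.30 with a median of -0.15. The lowest of those, SKIC8, and the highest, RTF1, also lie on chromosome 15, outside the interval. BLOC1S6, of the BLOC-1 complex of lysosome-related organelles, was at -0.47, while its 7 partners ran from -0.53 to 0.86 with a median of 0.21. COPS2, of the COP9 signalosome that regulates cullin ubiquitin ligases, was at -0.14, with 8 partners from -0.27 to 0.71 and a median of 0.12. EIF3J, of the translation initiation factor eIF3, was at 0.02, with 12 partners at a median of 0.14 and from -0.12 to the 1.49 of EIF3C, whose near-identical gene copy makes its counts uncertain. AP4E1, at 0.32, was above its 3 AP-4 partners, which ran from -0.78 to 0.18. With guide 2, LEO1 rose while 0 of its 5 partners were called. Of the partners in the other complexes, EIF3B, a core eIF3 subunit, was called higher at 0.61 (adjusted p = 3.48e-12) and AP4S1, of AP-4, lower at -0.68 (adjusted p = 0.000193).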

How the data were processed

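Gene expression was measured by RNA-seq in 9 libraries, grouped by their labels into 3 groups of 3. The authors trimmed the reads (Trim Galore, cutadapt), used STAR for alignment to GRCh38 and featureCounts for counting, and the deposited values are raw counts per gene, 1 library per file, without normalization. The strand setting and the treatment of reads shared by genes are not given in the sources used here.

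From these counts, edgeR 4.0.16 (R 4.3.3) computed TMM factors, removed genes with too few counts (filterByExpr, minimum count 10, minimum total 15), which left 19278 of 60675 genes, and fitted all 9 libraries together with a robust quasi-likelihood F test. P-values were adjusted by the Benjamini-Hochberg method over all tested genes. Calls needed an adjusted p under 0.05 together with a fold of 1.5 or more. Log2 fold changes are shMETTL3 minus shScramble, and CPM of single genes are TMM-scaled. SE is an approximate standard error, the absolute log2 fold change over the square root of its F statistic. Values over members are medians and counts, with no test. The procedure was tested on simulated data.

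The members, the gene lists and the comparisons were chosen with earlier results of these data known. Genes named are the members called with guide 2, the 6 lowest and 6 highest in guide 1, those at the extremes of level and position, the 3 nearest genes outside either end, those just under 10 CPM and the complex subunits; other members are named where a pattern, a pair or a flagged value includes them, which was decided after their values were seen. A check of the replicate numbers gave correlations of deviations between -0.098 and 0.053, so the numbers do not pair libraries. Alternatives were DESeq2 1.42.0, its size factors in edgeR, library size alone, other filters, 6 libraries alone, a replicate block, each library left out, other call rules, other minimum levels and members without shared exon bases. A count of 0 to 3 corresponds to at most 0.0971 to 0.137 CPM, and depth covers counting error only.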

Additional observations from a re-analysis of the deposited data

Results flagged for a closer look

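For 21 members, every guide 2 library and every library labelled guide 1 lay on opposite sides of every shScramble library (43.8%), as they did for 30% of the genes of at least 10 CPM. Both comparisons share the shScramble libraries, the libraries labelled guide 1 chose the interval, and the difference between the guides was not tested. Values are log2 fold changes of guide 2 against guide 1.

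In 18 of them guide 2 was the higher (37.5%, against 19.6% of genes of at least 10 CPM). The values were 1.68 for SLC30A4, 1.61 for SQOR, 1.58 for EID1, 1.35 for LYSMD2, 1.30 for LEO1, 1.29 for SLC27A2, 1.27 for SORD2P, 1.19 for WDR72, 1.08 for RAB27A and 1.02 for RSL24D1. Smaller values were 0.98 for GALK2, 0.85 for MYO5C and for GNB5, 0.80 for GOLM2, 0.73 for SECISBP2L, 0.70 for BLOC1S6, 0.58 for TMOD3 and 0.37 for COPS2. In the other 3, guide 1 was the higher (6.25%, against 10.4%), at -1.69 for GABPB1-AS1, -0.97 for TMOD2 and -0.39 for CEP152.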

How the results depend on the processing

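With the replicate number as a replicate block, the count of members called with guide 2 was 9 and the guide 1 median -0.46, as without it, and no call changed. DESeq2 also called 9. Scaling by library size alone gave a guide 2 median of -0.18 and a median of guide 2 against guide 1 of 0.42 in place of 0.56; the median of all tested genes with guide 2 moved from -0.04 to -0.19 in that setting. It gave log2 fold changes of -0.0012 for GOLM2 and -0.02 for CTDSPL2, 0.51 for LEO1 and 0.53 for RSL24D1 (calls lost), -0.68 for TMOD2 and -0.70 for DMXL2 (calls gained). A minimum mean of 1 CPM gave a guide 2 median of -0.08. Without a filter on low counts DUT was at 0.0042 and SQOR at 0.59, a call, which SQOR also reached without shScramble replicate 2. Without 1 library, AP4E1 lay between -0.11 and 0.0022, the latter without guide 2 replicate 1. The adjusted p alone called 36 members (75%), 21 of them higher, against 71.3% of genes of at least 10 CPM, and glmTreat called 7 (14.6%), against 10.8%. With a minimum of 5 CPM, 14 of 56 genes were called (25%), against 19.4% of all genes at that level, and with 20 CPM the guide 1 median was -0.42. Over the 14 members that share no exon bases, 2 were called (14.3%), 3 were lower by 1.5 fold or more in guide 1 (21.4%), and the medians were -0.31 (guide 1) and -0.08 (guide 2). Leaving out 1 library at a time, the guide 1 median lay between -0.47 and -0.43, and its difference from that of the flanking genes between -0.23 and -0.19. Of 432 guide 2 values of the 27 members named by the fixed rule, 423 kept their sign and their call, which joins both limits. Members named only for a pattern, a pair or a flagged value, such as DMXL2, are not in that count. The adjusted p alone could still cross 0.05 without a change of call. With scaling by library size alone, BLOC1S6 no longer passed 0.05, while DUT, which had not passed it, did. The cause of the changes was not tested.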

Other observations

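Beyond the distal end, ANXA2, a calcium-dependent membrane-binding protein 3048 kb past the interval, measured 5.19 ± 0.355 CPM in shScramble, 0.699 ± 0.127 CPM with guide 2 and 39.1 ± 3.71 CPM in the libraries labelled guide 1 (mean ± SD, n = 3 in each). ALDH1A2, in the same order, measured 1.35 ± 0.123, 0.773 ± 0.201 and 29.6 ± 0.719 CPM. Both reached the mean of 10 CPM through the libraries labelled guide 1, where they were high, and were named after their values were seen, so nothing is read from their difference between the guides, which was not tested. ANXA2 has pseudogene copies on other chromosomes, which makes its counts uncertain.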
